A study of Mus musculus with 4 samples.

Results

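The comparison set SVEC4-10 cells carrying a short hairpin RNA against Mical2 beside cells carrying one against Mical3. Both hairpins were expressed from the pLENTI6/Block-iT lentiviral backbone and cells of both kinds were selected with blasticidin, so vector and selection were common to both sides. Members are the genes whose log2 level differed by at least 1 (a fold of at least 2) between the Mical2-labelled array and the Mical3-labelled array, and whose brighter reading reached 5.41, the median of the whole table, called the floor below. There were 898 such genes of 18193 measured, or of 11928 at or above the floor on a hairpin array (7.53%). The other 2 arrays of the series were of untreated cells and of cells with the insert-free vector under the same selection. They helped to choose each gene's probe set and to set the floor, and otherwise show where a member stood without a hairpin. SVEC4-10 is a mouse endothelial line transformed with SV40, and expression was read on 3' arrays of probe sets as log2 levels. Each array held RNA pooled from 3 biological replicates, so there is 1 array per group, no spread between replicates, no test and no p-value. A single hairpin was used per gene. Every difference is one between 2 pooled arrays, and in such bulk samples fewer cells of a type and less RNA per cell cannot be told apart.

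MICAL proteins are flavin enzymes that oxidise methionines of actin filaments, which makes the filaments fall apart, and methionine sulfoxide reductases of the Msrb family reverse the reaction. MICAL2 acts largely in the nucleus, where a change in the actin pool frees cofactors of the MRTF family to switch on SRF target genes, many of them contractile. MICAL3 is best known for a role in vesicle docking and in the last step of cell division. Endothelial cells depend on actin remodelling for sprouting and migration.

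The hairpins are shown because they are the designed difference between the arrays. Each has a stem of 23 bases closed by the loop ttcaagaga, and capitals mark bases 2 to 8 of each arm, the seed by which a loaded strand first pairs with a transcript.
Mical2 hairpin, first arm: aACATGGCaggagcaggaagcac
Mical2 hairpin, second arm: gTGCTTCCtgctcctgccatgtt
Mical3 hairpin, first arm: aAGTGGAGgagattagtggcgtg
Mical3 hairpin, second arm: cACGCCACtaatctcctccactt
The first arms were identical at 7 of 23 positions and the 4 seeds were all different. Among 1679 mature mouse miRNAs of RefSeq (GRCm38.p6), each arm of the Mical2 hairpin shared its seed with 1 miRNA and neither arm of the Mical3 hairpin with any. These were mmu-miR-3082-3p, which shares the seed of the first arm, and mmu-miR-6943-3p, which shares that of the second, shown with the same bases in capitals.
mmu-miR-3082-3p: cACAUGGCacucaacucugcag
mmu-miR-6943-3p: cUGCUUCCauaccccuacccag
The sites of the hairpins in transcripts were not analysed here.

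The target genes did not differ by 2-fold between the arrays. Mical2 was read at 5.53 on the Mical2-labelled array and 6.08 on the Mical3-labelled array, with 5.14 (vector) and 5.6 (untreated), and its other probe set differed in the same direction, by -0.47. Mical3 was read at 6.83 and 7.24 on the same hairpin arrays, with 7.29 (vector) and 7.39 (untreated), so it was lower on the array carrying the other hairpin (a difference of -0.41). Mical2 on its own hairpin array thus lay above the vector array and close to the untreated one, and Mical3 on its own hairpin array lay within 0.15 of both controls. Transcript levels on these probe sets therefore do not bear out the labels. Mical2 was read close to the floor of 5.41 on both of its probe sets, where differences may be understated, and Mical3 had 1 probe set. Whether the targets were lowered cannot be settled from these readings, and every direction given here is one between arrays as labelled. In the family list, which also holds the Msrb genes, 3 of 8 genes at or above the floor were called (37.5%, against 7.53% of all genes), all of them relatives. Micall2, an adaptor of junctional traffic, stood at 7.36 on the Mical2-labelled array and 5.56 on the Mical3-labelled array, with 6.01 (vector) and 7.19 (untreated). Mical1 stood at 8.0 and 6.82, with 8.0 and 7.59 on the controls, and its other probe set had a difference of 1.14. Micalcl lay exactly on the threshold at 6.06 against 5.06, and with chromosome medians subtracted the count for the family was 1.

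Over all 45101 probe sets the array medians ran from 5.40 to 5.44, and the difference between 3' and 5' probe sets of the same control transcript lay within 0.03 between the hairpin arrays for Gapdh and beta-actin, and was 1.17 against 1.71 for pyruvate carboxylase and 1.03 against 0.84 for the transferrin receptor. By the same size rule, the Mical2-labelled array was apart from the vector array for 1286 genes (10.7%) and from the untreated one for 463 (3.89%), the Mical3-labelled array for 1402 (11.8%) and 670 (5.67%), and the control arrays from each other for 691 (5.83%). Of 22 endothelial markers, 12 were below the floor on all 4 arrays, among them the defining markers Pecam1 (3.85 on the Mical2-labelled array and 3.51 on the Mical3-labelled array), Cdh5 (4.36 and 4.32), Tek and Tie1. Of the 10 at or above it, Cd34 was the 1 called (10%, near the 7.53% of all genes), at 10.02 against 3.93. The summed log2 level of the list was 11.08 against 10.15, with 10.14 (vector) and 10.13 (untreated). A sum is weighted to bright genes, and Cd34 was bright on the Mical2-labelled array alone. The median difference of the 10 was -0.01, with 5 above 0 and 5 below. Flt1, Egfl7 and Eng were above the floor on each array and differed by at most 0.16 between the hairpin arrays.

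The members were divided almost equally by direction. On the Mical2-labelled array, 454 genes were higher (3.81% of those at or above the floor), and on the Mical3-labelled array there were 444 (3.72%). The tail was longer on one side, since 58 genes were higher by at least 3 on the log2 scale on the Mical2-labelled array and 33 on the Mical3-labelled array. Median sizes were 1.54 and 1.32. All genes at or above the floor had a median difference of -0.02 and a median absolute difference of 0.26. The lower of both levels was under the floor for 132 and 74 members, for which the fold may be understated.

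**Figure D1:**
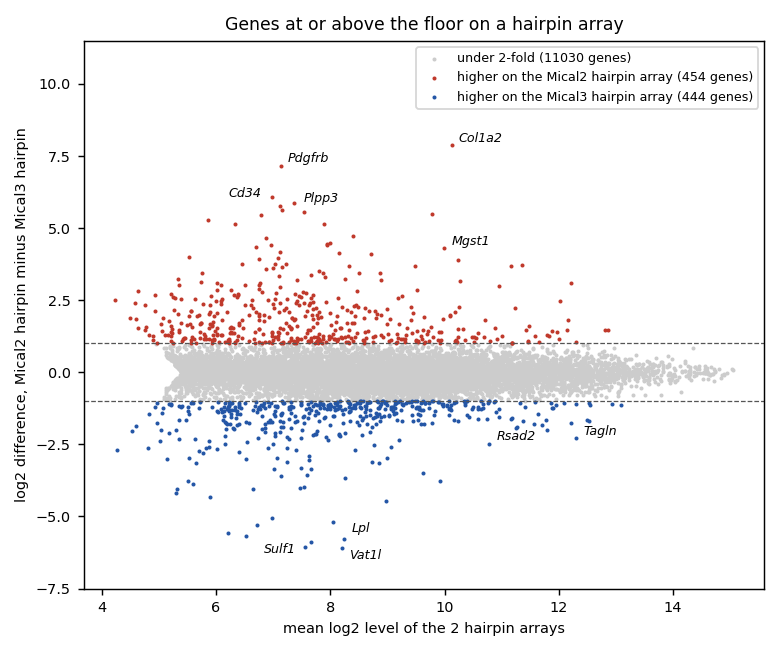
Log2 difference between the hairpin arrays (vertical axis, Mical2 hairpin minus Mical3 hairpin) against the mean log2 level of both (horizontal axis), 1 point per gene at or above the floor, with dashed lines at a difference of 1 in either direction. The 454 genes in red and 444 in blue passed the size rule, and members lie at all levels but reach furthest at middle ones.

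Col1a2, a chain of type I collagen, had the widest gap of all. It stood at 14.06 on the Mical2-labelled array and 6.19 on the Mical3-labelled array, with 11.64 (vector) and 14.49 (untreated), a difference of 7.87, and its other probe sets gave 9.23 and 1.56. The Mical3-labelled array was the lowest, and the vector array also lay below the Mical2-labelled and untreated arrays. Col1a1, the other chain of type I collagen, was not called. Pdgfrb, the receptor of PDGF-B on mural and mesenchymal cells, stood at 10.71, 3.55, 8.13 and 10.28 in the same order, while its other probe set gave a smaller difference of 1.76. Cd34, a sialomucin of endothelial and progenitor cells, showed the opposite layout at 10.02, 3.93, 3.76 and 4.29, with the Mical2-labelled array alone above the floor.

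The next in size were 5 genes of lipid, signalling and transcription roles. Plpp3, a phosphatase that removes lysophosphatidic acid, stood at 10.30 on the Mical2-labelled array and 4.44 on the Mical3-labelled array, with 8.29 and 7.98 on vector and untreated arrays between them. Plac8 stood at 10.00, 4.23, 4.99 and 7.81 in that order. Grb10, an imprinted adaptor that restrains insulin signalling, stood at 9.98, 4.34, 9.64 and 9.67, so it was low on the Mical3-labelled array alone, though its other probe sets, all below the floor on both hairpin arrays, differed by no more than 0.09. The homeobox gene Prrx2 (10.31, 4.76, 8.41 and 9.22) and the pantetheinase gene Vnn1 (12.52, 7.03, 9.89 and 10.53) had both controls between the hairpin arrays. The kinase gene Dclk1 differed by 5.47, Gatm, an enzyme of creatine synthesis, by 5.27, Nrep by 5.16, the lipase gene Lipo3 by 5.15, the BMP antagonist gene Grem1 by 4.74, the adenylate kinase gene Ak4 by 4.65 and the mitophagy receptor gene Bnip3 by 4.47.

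In the other direction Vat1l led, at 5.15 on the Mical2-labelled array and 11.25 on the Mical3-labelled array, with 4.67 (vector) and 7.25 (untreated). Churc1 stood at 4.52, 10.59, 11.94 and 10.97, and Sulf1, a sulfatase that edits heparan sulfate outside the cell, at 4.71, 10.60, 9.95 and 10.19. Lpl, the lipase that frees fatty acids from lipoproteins, stood at 5.35, 11.13, 11.23 and 11.91. For Churc1, Sulf1 and Lpl the Mical2-labelled array was the low one. Satb1, an organiser of chromatin, stood at 3.68, 9.37, 4.31 and 7.04, and the metal transporter gene Slc39a8 at 3.43, 9.0, 4.31 and 5.70. Cdh11, a mesenchymal cadherin, was bright on the Mical3-labelled array and the untreated array (10.64 and 10.60) and at 5.45 on the Mical2-labelled array and 4.68 on the vector array. Stk26 and Mpzl2 had the same layout, with differences of -5.28 and -5.05.

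Aif1l, an actin-bundling protein, was apart by -4.48, the dystrophin gene Dmd by -4.32, Nudt12 by -4.19, the germ cell helicase gene Ddx4 by -4.05, the convertase gene Pcsk5 by -4.04 and Fkbp11 by -4.00. Ddx4 was above the floor on the Mical3-labelled array alone, at 7.34 against 3.28 to 3.47 elsewhere. For Fkbp11 the value came from a probe set open to cross-hybridisation and reversed to 0.14 on the other one at the floor.

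**Figure D2:**
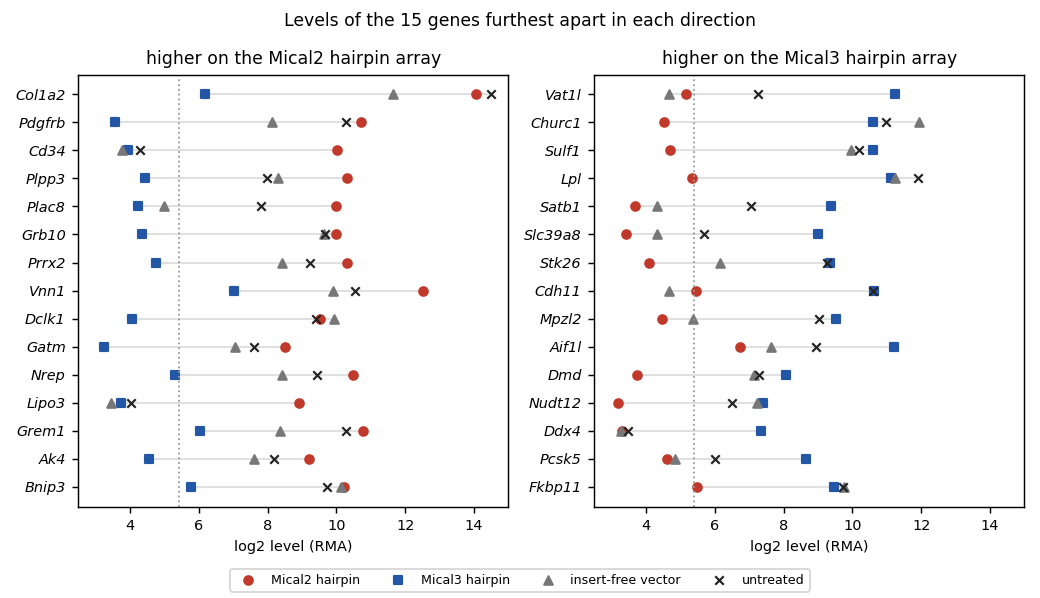
Log2 level (horizontal axis) of the 15 named genes furthest apart in each direction, 1 row per gene and 1 mark per array, with the floor of 5.41 as a dotted line. Red circles (Mical2 hairpin) and blue squares (Mical3 hairpin) are at least 4 apart in each row, and the grey triangle (vector) and black cross (untreated) lie near one of them, between them or, as for Churc1 and Lpl, beyond them.

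Control arrays, which the rule used to choose the probe set and to set the floor, were placed beside each member. A hairpin array is called apart when it differed from both controls by at least 1 in one direction while the other hairpin array lay within 1 of both. Among genes higher on the Mical2-labelled array, the Mical3-labelled array was apart for 122 (26.9%) and the Mical2-labelled array for 51 (11.2%). Among genes higher on the Mical3-labelled array, it was 78 (17.6%) and 84 (18.9%). Both were apart in opposite directions for 16 and 4 genes, and in the same direction for 3 and 7. The remaining 262 and 271 had a mixed layout that met none of these definitions.

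The 20 genes that left the controls on opposite sides included Plpp3, Prrx2, Vnn1, Nrep and Ak4, with the Mical2-labelled array high. The 4 with the Mical3-labelled array high were Scel (7.87 against 11.37, with 9.53 and 10.15 on the controls), Rnf144b, a ubiquitin ligase gene, Ramp1, which partners the CGRP receptor, and Nebl, a nebulin-related actin-binding protein. Ramp1 stood at 7.28 and 10.43 with 8.69 and 8.88 on the controls.

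Other probe sets of the same gene read the same RNA with different probes. For genes higher on the Mical2-labelled array, 283 of 289 such probe sets at or above the floor had the same sign, and 175 were themselves apart by at least 1. For the other direction it was 296 of 322 and 152. None was apart by 1 with the opposite sign. For 198 and 175 members there was no other probe set to compare. At the threshold, Ccn5, Micalcl and Mxd3 were in at 1.0 and Fbxo32, Flvcr1 and Foxs1 out at 0.99, and Cnot4, Erc1 and Mta3 were in at -1.0 and Naglu, Otud7b and Pon2 out at -0.99. The standard deviation of 1 probe set's difference, estimated from the disagreement of the 2 brightest probe sets of 5369 genes, was 0.29, which leaves out the error of the RNA pool and of the array.

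Most of the matrix genes that were called were higher on the Mical2-labelled array. In the counts of this and the following lists, higher and lower mean called by the size rule. Of 22 collagens at or above the floor 7 were higher there and 1 lower (36.4% called, against 7.53% of all genes). Col3a1, the fibrillar partner of type I collagen, stood at 13.25 on the Mical2-labelled array and 10.79 on the Mical3-labelled array, with 10.30 (vector) and 13.29 (untreated). The chains of the beaded microfibril, Col6a1, Col6a2 and Col6a3, were higher by 1.53, 1.62 and 2.47, and Col12a1, which coats fibrils, by 2.57. Col8a1, a short-chain collagen of vessel walls, went the other way, at 7.51 against 10.03, with 4.47 (vector) and 9.09 (untreated). The median difference over the 22 was 0.12.

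Among 35 matrix glycoproteins and crosslinking enzymes, 9 were higher on the Mical2-labelled array and 2 lower (31.4% called, median 0.31). The small proteoglycans Ogn (10.76, 6.65, 9.19 and 10.40 on Mical2, Mical3, vector and untreated arrays) and Fmod (8.72, 4.80, 5.89 and 10.63) led. Vcan, the large hyaluronan-binding proteoglycan, stood at 10.23, 6.79, 7.71 and 8.86, and Has2, which makes hyaluronan, at 9.02, 5.81, 6.57 and 7.91. The Mical3-labelled array was the lowest of the 4 for 8 of the 9, while the Mical2-labelled array was the highest for 6. Ltbp1, which stores latent TGF-beta in matrix, was higher by 3.22, Postn by 3.10, Emilin1 by 3.02, the collagen crosslinking oxidase gene Lox by 1.48 and Tnc by 1.22. Loxl1, another oxidase of this family, was lower at 5.35 against 6.69, as was Sulf1.

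Of 32 matrix proteases and inhibitors, 5 were higher on the Mical2-labelled array and 1 lower (18.8%, median 0.18). Serpinf1, which encodes the anti-angiogenic factor PEDF, stood at 12.19 against 8.28, with 7.73 (vector) and 10.87 (untreated). Adam12 (3.08), Mmp3 (2.36), Mmp2, a gelatinase (1.62), and Mmp11 (1.10) were the others. In basement membrane the nidogens, which link laminin to type IV collagen, were split. Nid1 stood at 4.34 against 7.06 and Nid2 at 8.33 against 6.24, while no laminin was called.

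Transcription factors of mesenchymal identity were higher on the Mical2-labelled array in 8 of 27 cases and lower in 1 (33.3% called, median 0.34). Prrx1 stood at 10.15, 5.73, 7.53 and 9.86 on Mical2, Mical3, vector and untreated arrays, and of its 4 other probe sets at the floor 3 differed by 2.56 to 3.96 and 1 by 0.92. Twist2 stood at 10.23, 6.09, 10.00 and 9.70, low on the Mical3-labelled array alone. Hand2 differed by 2.30, Foxf1 by 2.22, Tcf4 by 1.27, Msx1 by 1.12 and Nr2f1 by 1.02, while other probe sets at the floor gave 0.49 for Hand2, 0.10 for Foxf1, 0.43 for Msx1 and 0.73 to 1.63 for Tcf4. Osr1 was lower, with a difference of -1.03. Of 8 fibroblast markers at or above the floor, Col1a2, Pdgfra, Col3a1 and Dpt were called higher on the Mical2-labelled array and none lower (50%, against 7.53% of all genes). Of the 8, 2 had a difference below 0, among them Dcn (-0.52). Col1a2, Col3a1 and Pdgfra also belong to the collagen and growth factor lists, so these counts share genes. The list's summed level was 15.99 on the Mical2-labelled array, 14.73 on the Mical3-labelled array, 14.74 (vector) and 15.98 (untreated), on the log2 scale, and Thy1 and Lum were below the floor on all 4. The part of fibroblast-like cells in these differences was not tested.

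Growth factors and receptors of vessel growth had 8 of 33 genes higher on the Mical2-labelled array and 1 lower (27.3% called, median 0.11). Among ligands, Cxcl12, the chemokine that draws CXCR4-bearing cells, stood at 13, 9.32, 12.46 and 12.84 on Mical2, Mical3, vector and untreated arrays. Igf1 stood at 9.55, 6.05, 5.79 and 9.01, and all 3 of its other probe sets differed by at least 3.74. The lymphangiogenic ligands Vegfc (8.86 against 6.64) and Vegfd (8.75 against 6.03) were low on the Mical3-labelled array alone. Kitl, stem cell factor, was higher by 1.49 and Vegfb lower, with a difference of -1.03. Among receptors, Pdgfra stood at 9.88, 7.07, 6.16 and 10.40, with a difference of 0.38 on one of its other probe sets. Fgfr1 stood at 7.75, 5.03, 7.18 and 6.62. Other probe sets of Fgfr1, below the floor on both hairpin arrays, differed by 0.04 and 0.19. The VEGF receptors Flt1, Kdr and Flt4 differed by 0.02, -0.19 and 0.11.

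In the TGF-beta and BMP list 4 of 37 genes were higher on the Mical2-labelled array and 2 lower (16.2%, median 0.11). Besides Grem1 and Ltbp1 they were the decoy receptor gene Bambi (6.73 against 5.07) and Tgfb2 (10.26 against 9.18), and lower were Inhbb, an activin subunit (-1.09), and the BMP antagonist gene Chrd (-1.14). The Wnt list was split 4 against 4 of 35 (22.9%, median -0.02). Ligands and the agonist Rspo1 were lower on the Mical2-labelled array, with Wnt11 at 5.69 against 8.80, with 5.19 and 6.55 on the controls, and Wnt5a at 7.53 against 8.77. The receptors Fzd1, Fzd3 and Fzd8 and the agonist Rspo3 were higher, Rspo3 at 7.65 against 4.98 with 8.24 and 7.88 on the controls, and Fzd5 was lower, with a difference of -1.02. The other probe set of Fzd5, at the floor, differed by -0.12. With the mean of all probe sets the count of lower genes was 2.

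Guidance genes were split as well, with 3 higher and 5 lower of 43 (18.6%, median -0.04). Slit2, a repellent read by Robo receptors, stood at 7.18, 10.29, 5.11 and 9.59 on Mical2, Mical3, vector and untreated arrays. The semaphorins Sema3d, Sema3e and Sema4a and the ephrin Efnb1 were lower on the Mical2-labelled array by between -1.67 and -1.15. Ntn1, netrin, was at 8.66 against 5.09, and Efna1 was higher by 1.54 and Plxna2 by 1.05. The other probe set of Ntn1, below the floor on both hairpin arrays, differed by -0.01. No member of the Notch list (13 at or above the floor) was called.

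Called targets of SRF and MRTF were more often higher on the Mical3-labelled array. Of 34 SRF and MRTF targets 6 were higher there and 2 lower (23.5% called, median -0.25, with 25 of 34 below 0). Tagln, transgelin of smooth muscle, stood at 11.16 on the Mical2-labelled array, 13.45 on the Mical3-labelled array, 6.47 (vector) and 10.27 (untreated). Actg2, enteric smooth muscle actin, stood at 4.70, 7.07, 3.96 and 5.82, and Fhl1, a LIM protein of stress fibres, at 10.80, 12.62, 10.21 and 10.94. Zyx was lower, with a difference of -1.2, and Tgfb1i1 and Tuft1 lay exactly on the threshold at -1.0. Fhl2 (9.84 against 8.15) and Filip1l (1.11) went the other way. Acta2, smooth muscle actin, was not called at 13.80 against 14.49. With the median difference of all genes subtracted, the count of 6 became 4.

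Actin assembly had 2 of 42 genes called, both higher on the Mical3-labelled array (4.76%, below the share of all genes), Limk1, the kinase that switches off cofilin (7.85 against 8.99), and Wasl, an activator of Arp2/3, at the threshold of -1.0. The other probe set of Limk1 at the floor gave 0.06, those of Wasl gave -1.03 and -1.02, and with the mean of all probe sets of a gene neither was called. Of 32 integrin and focal adhesion genes, Itga3 (8.11 against 9.67), Zyx and Itga6 (9.12 against 10.20) were higher on the Mical3-labelled array, and Itgb5 (10.36 against 8.90) and Itgb2 (1.15) lower, 15.6% in all. The 3 became 1 with the mean of all probe sets and 5 with the most variable probe set, and the 2 became 1 with chromosome medians subtracted. YAP and TEAD targets had 3 higher there and 2 lower of 21 (23.8%, median -0.45). Dock5, Lats2 and Crim1 differed by between -1.21 and -1.01, and Foxf2 and Tgfb2 by 1.09 and 1.08. The 3 became 1 with loess, with chromosome medians subtracted and with the mean of all probe sets, and the 2 became 1 under the last 2 of these. Ccn1 and Ccn2, the best known of these targets, were not called at -0.81 and -0.49. Cdh11 was the single cadherin or junction gene called of 19 (5.26%, below the 7.53% of all genes).

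ERK feedback and immediate early genes had 7 of 37 higher on the Mical3-labelled array and 1 lower (21.6%, median -0.13). Etv5, an ETS factor switched on by ERK, stood at 5.32 on the Mical2-labelled array, 7.75 on the Mical3-labelled array, 5.05 (vector) and 5.98 (untreated). Its relative Etv4 stood at 6.27, 7.80, 5.66 and 6.05. Other probe sets, all below the floor on both hairpin arrays, differed by 0.08 and -0.5 for Etv5 and by -0.27 for Etv4. The phosphatases that end MAP kinase signals, Dusp1 (10.32 against 12.21), Dusp4 (9.66 against 11.14) and Dusp5 (8.43 against 9.76), and the inhibitor Spry2 (8.24 against 9.47) had the same direction, as did Ier3 (-1.12). In all 7 the Mical3-labelled array was the highest of the 4 arrays. With the mean of all probe sets of a gene the count was 4. Egr2 went the other way, at 6.02 against 4.13.

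**Figure D3:**
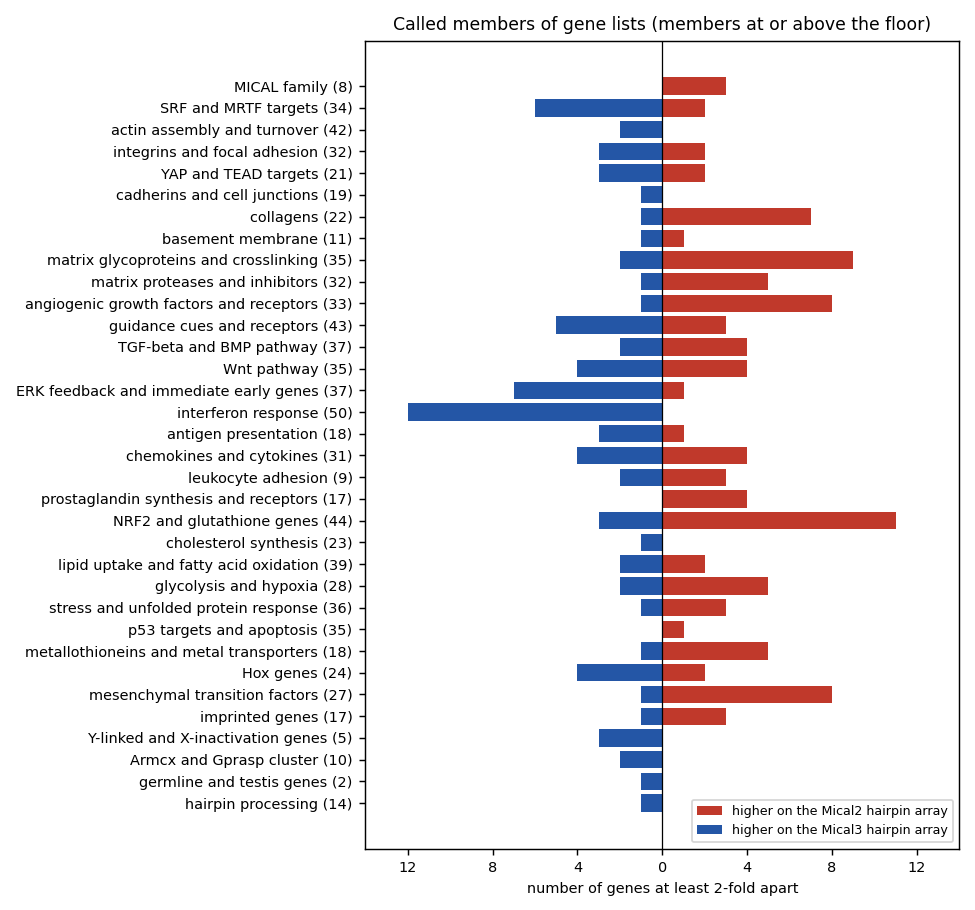
Number of genes at least 2-fold apart in the gene lists described that have a called member, to the right for those higher on the Mical2 hairpin array and to the left for those higher on the Mical3 hairpin array, with the members at or above the floor in parentheses. Interferon response genes lie to the left in 12 of 12 cases, and collagens, matrix glycoproteins and NRF2 genes mostly to the right.

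The interferon response genes that were called were all lower on the Mical2-labelled array. Type I interferon acts through STAT and IRF factors to switch on a broad set of antiviral genes. Of 50 at or above the floor, 12 were higher on the Mical3-labelled array and none on the Mical2-labelled array (24% called, median -0.51, with 41 of 50 below 0). Rsad2, viperin, stood at 9.54 on the Mical2-labelled array, 12.03 on the Mical3-labelled array, 12.44 (vector) and 11.02 (untreated), and its other probe sets differed by -2.32 and -2.52. Ifit1, which binds foreign RNA caps, stood at 10.78, 12.79, 13.10 and 12.05, and Ifit3 at 8.69, 10.49, 11.88 and 10.07. Across the 12 the Mical2-labelled array was the lowest of the 4 and the Mical3-labelled array lay below the vector array.

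The RNA sensors Ifih1 (9.94 against 11.56), Dhx58 (6.05 against 7.55) and Ddx60 (5.38 against 6.89) were among the 12, with Ifit2 (-1.68), Oasl2 (-1.66), the deconjugase gene Usp18 (-1.27), Isg20 (-1.19), Parp14 (-1.05) and the GTPase gene Ifi47 (-1.01). Other probe sets of Dhx58 differed by 0.13 and -0.43 and that of Ddx60 by 0, all below the floor on the hairpin arrays. Ifit2, Ifit3, Ifit1bl1 and Ifit1 were the longest stretch of neighbouring genes called in one direction. Genes of the same chromosome were lower on this array in general, with a median of -0.38 on chromosome 19. With each chromosome's median subtracted, 10 of the list were called.

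The promoters of 3 of these genes are shown because their transcripts were lower together and the windows hold the interferon response motif, 2 copies of GAAA with 2 bases of any kind between them, searched on both strands and given in capitals. The stretches shown are the 250 bases before the annotated start in RefSeq (GRCm38.p6), 5′ to 3′ on the strand of the gene. Shares of genes with a motif, given below, were counted over whole promoter windows, of which these stretches are a part.
Ifit1, chr19:34640639-34640888, plus strand: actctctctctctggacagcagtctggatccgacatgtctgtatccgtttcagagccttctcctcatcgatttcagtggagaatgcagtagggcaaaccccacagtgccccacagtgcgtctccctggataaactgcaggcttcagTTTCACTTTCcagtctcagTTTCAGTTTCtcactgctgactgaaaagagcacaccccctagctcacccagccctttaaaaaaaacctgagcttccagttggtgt
Ifit3, chr19:34583279-34583528, plus strand: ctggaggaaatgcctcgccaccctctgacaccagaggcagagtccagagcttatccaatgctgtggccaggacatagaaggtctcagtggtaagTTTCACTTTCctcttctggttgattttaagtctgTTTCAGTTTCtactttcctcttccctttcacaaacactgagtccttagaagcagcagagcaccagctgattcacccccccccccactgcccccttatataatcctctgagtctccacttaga
Rsad2, chr12:26456453-26456702, minus strand: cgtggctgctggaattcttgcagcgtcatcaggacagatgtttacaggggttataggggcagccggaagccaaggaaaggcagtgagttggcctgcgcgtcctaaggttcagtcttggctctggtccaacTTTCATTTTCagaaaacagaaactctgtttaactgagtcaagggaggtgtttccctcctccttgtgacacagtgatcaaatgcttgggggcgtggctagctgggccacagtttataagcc
Of the 12 genes, 9 had a promoter window, and 5 of these held the motif (55.6%). The share was 3.45% of 9643 genes at or above the floor and 3.99% of all 27025 genes with a window. The 9 genes come from a list chosen for the interferon response, so a share above that of all genes can follow from the list alone. The uncalled genes of the list were not counted for comparison. Over all members with a window the share was 3.74% of 348 genes higher on the Mical2-labelled array and 4.79% of 355 higher on the Mical3-labelled array. Other motifs were also searched on both strands, and their shares are given in that order, then for genes at or above the floor and for all genes. The AP-1 motif TGACTCA was found in 6.61%, 6.20%, 4.56% and 5.95%, and the TEAD motif GGAATG in 14.7%, 18.0%, 14.3% and 16.6%. The antioxidant response motif TGACNNNGC was found in 16.1%, 17.2%, 16.6% and 14%, and the CArG box in 3.16%, 3.38%, 1.64% and 1.81%. AP-1 and antioxidant motifs can overlap, since both may start with TGAC. These shares describe letters in the windows and say nothing about binding.

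Antigen presentation genes had 3 of 18 higher on the Mical3-labelled array and 1 lower (22.2%, median -0.30). The class I chains H2-K1 (8.88 against 10.13) and H2-D1 (11.39 against 12.52) and the immunoproteasome subunit Psmb8 (5.34 against 7.14) were lower on the Mical2-labelled array, and the class I regulator Nlrc5 higher, at 5.76 against 4.34. With the mean of all probe sets of a gene no gene of the list was called higher on the Mical3-labelled array, and the count was 1 with chromosome medians subtracted or without probe sets open to cross-hybridisation. Chemokines and cytokines were split 4 against 4 of 31 (25.8%, median -0.11). Ccl9 stood at 8.59, 5.64, 6.19 and 5.78 on Mical2, Mical3, vector and untreated arrays, so the Mical2-labelled array was the high one, and Cxcl1, a chemokine that draws neutrophils, at 10.49, 8.42, 10.02 and 12.75. Il13ra1 was higher by 2.88. Lower were Ccl5 (10.67 against 12.45), Cxcl10, an interferon-induced chemokine (11.29 against 12.52), Tslp (-1.92) and Il18 (-1.01).

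Leukocyte adhesion genes had 3 higher and 2 lower of 9 (55.6%). Besides Cd34 these were P-selectin, Selp, at 8.30 on the Mical2-labelled array and 5.75 on the Mical3-labelled array, with 5.98 and 6.32 on the controls, and Cd47 (1.06). Other probe sets of Cd47 at the floor differed by 0.11 to 0.78. Podxl, a sialomucin related to CD34, went the other way, at 7.66, 9.72, 8.33 and 9.24, as did Mcam (-1.17).

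NRF2 and glutathione genes had 11 of 44 higher on the Mical2-labelled array and 3 lower (31.8% called, median 0.21). NRF2 switches on enzymes that conjugate electrophiles and reduce quinones. Mgst1, a membrane glutathione transferase, stood at 12.14 on the Mical2-labelled array, 7.84 on the Mical3-labelled array, 10.85 (vector) and 10.20 (untreated), outside both controls on either side. Sod3, extracellular superoxide dismutase, had the same layout at 8.81, 5.20, 7.11 and 6.75. Gstm1 stood at 10.18, 6.48, 10.39 and 9.08, low on the Mical3-labelled array, while Nqo1 stood at 9.84, 7.71, 6.98 and 7.01 and Gsta3 at 8.96, 6.20, 4.80 and 5.27, high on the Mical2-labelled array. Within this list the array that stood away from the controls thus varied from gene to gene.

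The other members higher on the Mical2-labelled array were the carbonyl reductase gene Cbr3 (2.19), the epoxide hydrolase gene Ephx1 (2.09), Gstt1 (2.03), Mgst3 (1.99), Aox1 (1.26) and Osgin1 (1.09). Gstt3 (4.69 against 7.35), Gsta4 (10.35 against 11.98) and Gstm5 (-1.17) were lower. Glutathione transferases are a family of near copies, and probe sets may read more than one of them. The Mical3-labelled array was the lowest of the 4 for 9 of the 11.

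**Figure D4:**
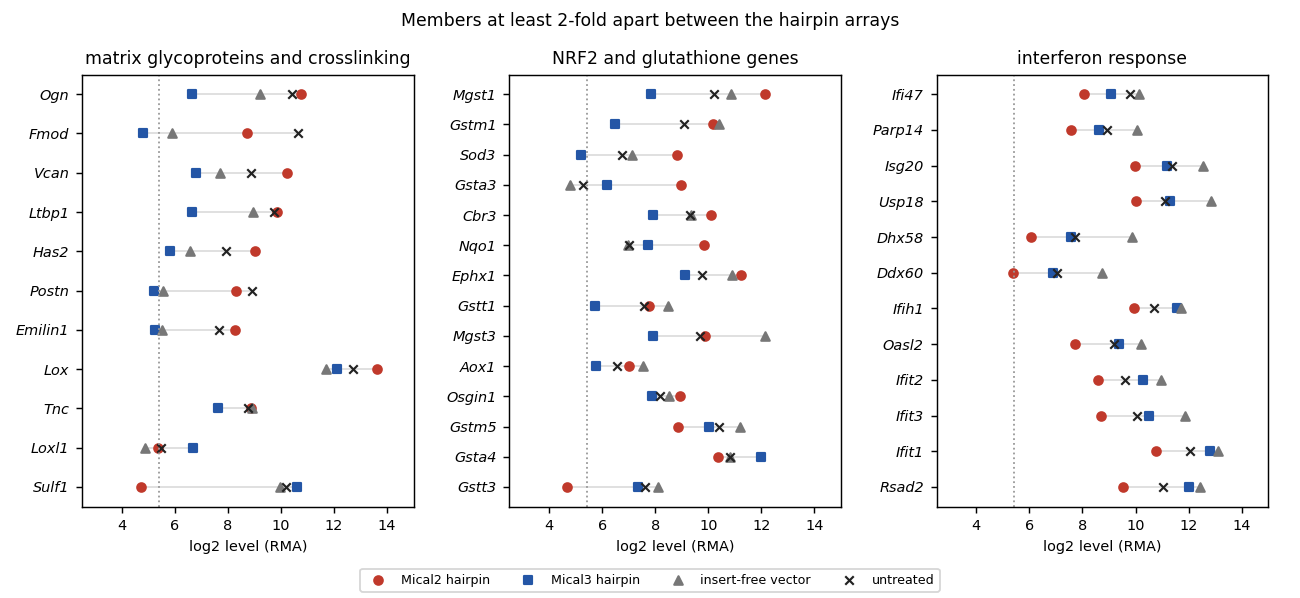
Log2 level (horizontal axis) on each array of the called members of the matrix glycoprotein, NRF2 and interferon lists, 1 row per gene, with the floor of 5.41 as a dotted line. In the interferon panel the red circle is the lowest mark in 12 of 12 rows and the blue square lies left of the grey triangle.

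Metallothioneins, which buffer zinc and copper, were low on the Mical3-labelled array. Mt1 stood at 13.76 on the Mical2-labelled array, 10.67 on the Mical3-labelled array, 13.48 (vector) and 13.12 (untreated), and Mt2 at 13.22, 9.50, 12.35 and 12.66. The iron exporter gene Slc40a1 had the same layout at 8.42, 5.67, 8.13 and 8.03. The zinc transporters Slc39a10 and Slc30a1 were higher on the Mical2-labelled array by 1.48 and 1.05. Slc39a8, an importer of zinc and manganese, was the 1 member of 18 called lower, while 4 of the 18 had a difference below 0. Another probe set of Slc30a1 at the floor differed by 0.17. In all, 33.3% of the list was called, with a median of 0.36.

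Prostaglandin genes had 4 of 17 higher on the Mical2-labelled array and none lower (23.5%, median 0.10). Ptgs2, the inducible cyclooxygenase, stood at 10.17 on the Mical2-labelled array, 5.72 on the Mical3-labelled array, 7.82 (vector) and 9.15 (untreated). Pla2g4a, the phospholipase that supplies it with arachidonic acid, stood at 10.08 against 8.98, and the PGE2 receptors Ptger3 and Ptger4 were higher by 2.41 and 1.25. Rgs2, Pla2g4a and Ptgs2 are neighbours in gene order and were called together, on chromosome 1, where genes had a median difference of 0.20.

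Glycolysis and hypoxia genes had 5 of 28 higher on the Mical2-labelled array and 2 lower (25%, median 0.32). Bnip3 stood at 10.23 against 5.76, with 10.13 and 9.73 on the controls. The mTOR inhibitor gene Ddit4 (10.32 against 8.52), Ndrg1 (1.25), Slc2a3 (1.18) and Pdk1 (1.13) were also higher, and hexokinase 2, Hk2 (8.92 against 10.20), and the oxygen sensor gene Egln3 (5.56 against 6.91) lower. Without probe sets open to cross-hybridisation Slc2a3 reversed to -0.29, and with the mean of all probe sets the count of higher genes was 3. Lipid genes had 2 higher and 2 lower of 39 (10.3%, near the 7.53% of all genes). Besides Lpl, the carnitine carrier gene Slc25a20 was lower, at 6.43 against 10.10, and the desaturase gene Scd1 (9.62 against 7.29) and the elongase gene Elovl6 (1.34) were higher. In cholesterol synthesis only Tm7sf2 was called of 23 (4.35%, below the share of all genes), lower at 5.30 against 7.06. Of the 23, 19 were above 0, with a median of 0.33.

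Stress and unfolded protein genes had 3 higher and 1 lower of 36 (11.1%), with Atf5 (1.24) and the heat shock genes Hspa1b (1.36) and Hspb1 (11.67 against 13.31) on opposite sides, and Ddit4 as above. Of 35 p53 and apoptosis genes Trp53inp1 was called (1.28), a share of 2.86%, below the 7.53% of all genes. None of 49 DNA replication and mitosis genes was called, with a median of -0.07. Of 14 genes of hairpin processing, Ago1 alone was called (7.14%, near the 7.53% of all genes). Ago1 was lower on the Mical2-labelled array, at 7.37 against 8.54, with 9.38 (vector) and 9.43 (untreated). Ago2 was not called, at 9.47 against 9.76.

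Genes of positional and chromosomal identity also differed. Hox genes had 2 higher and 4 lower of 24 (25%, median -0.06). Hoxa9 stood at 5.59 on the Mical2-labelled array, 8.22 on the Mical3-labelled array, 8.03 (vector) and 8.02 (untreated), and Hoxc10 at 5.20, 7.15, 7.36 and 6.37, both low on the Mical2-labelled array. The other probe set of Hoxa9, at the floor, differed by -0.29. Hoxa4 and Hoxb13 were lower, with differences of -1.40 and -1.08, and the neighbours Hoxd8 and Hoxd9 higher by 1.2 and 1.06. With chromosome medians subtracted the count of lower genes was 2. Imprinted genes had 3 higher and 1 lower of 17 (23.5%, median 0.03). Grb10, Gatm and Sgce (1.16) were higher on the Mical2-labelled array. Peg3, a zinc finger protein expressed from the paternal copy, was lower, at 8.03, 11.81, 7.65 and 10.35.

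The Y-linked genes Eif2s3y, Kdm5d and Uty were higher on the Mical3-labelled array. In the list of Y-linked and X-inactivation genes 3 of 5 at or above the floor were called (60%, against 7.53% of all genes). Eif2s3y stood at 6.04 on the Mical2-labelled array, 8.75 on the Mical3-labelled array, 3.14 (vector) and 5.03 (untreated). Kdm5d stood at 4.51, 7.15, 3.54 and 4.18 and Uty at 4.58, 7.18, 3.81 and 4.17. With the mean of all probe sets the count was 1. Xist, the RNA that silences an X chromosome, was below the floor on all 4 arrays, at 4.71 to 4.88. The X-linked Armcx1 stood at 4.04 against 7.02, with 8.43 and 8.17 on the controls, and Bhlhb9 at 4.81 against 6.26, with 10.06 and 9.65. Both genes were below both controls on both hairpin arrays and lower on the Mical2-labelled array. In the list of Armcx and Gprasp genes these were the 2 called of 10 at or above the floor (20%). The median difference of the 10 was -0.06, with 4 above 0 and 6 below.

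Markers of other cell types were measured on the same arrays, in lists of few genes. Of 6 pericyte and smooth muscle markers at or above the floor, Pdgfrb was higher on the Mical2-labelled array and Tagln and Mcam lower (50% called, against 7.53% of all genes). The summed log2 level of that list was 14.19 against 15.09, with 11.94 (vector) and 13.96 (untreated). This sum is weighted to bright genes, here Acta2 and Tagln. Of the 6 genes, 3 had a difference above 0 and 3 below. Cd14 was the single macrophage marker called of 7 (8.26 against 6.39, 14.3%), with Ptprc and Adgre1 below the floor on all 4 arrays. Of 9 epithelial markers Krt7 was called (-1.03, 11.1%) and of 4 neuronal ones Map2 (-2.02, 25%). Lpl was the 1 adipocyte marker called of 3 (33.3%), with Adipoq below the floor. No marker of lymphocytes or lymphatic endothelium was called, of 4 and 5. The part of these cell types in the other differences was not tested.

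The directions of the members were unevenly spread over chromosomes (assembly GRCm38.p6), and the median difference of all genes varied between chromosomes as well. On chromosome 6, 599 genes had a median difference of -0.41, with 14 called higher on the Mical2-labelled array and 66 lower (13.4% called). Chromosome 19 had a median of -0.38 (6 against 37 of 436 genes) and chromosome 17 one of -0.31 (3 against 46 of 585). In the other direction stood chromosome 10, with a median of 0.31 (50 against 7 of 590), chromosome 18, with 0.25 (22 against 3 of 292), and chromosome 1, with 0.20 (53 against 13 of 666). Medians of the 20 chromosomes with at least 100 genes were below 0 for 9 and above for 9.

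Control arrays show which side stood away. On chromosome 6 the Mical2-labelled array differed from the controls by medians of -0.25 (vector) and -0.26 (untreated), and the Mical3-labelled array had 0.08 and 0.15. On chromosome 18 the Mical2-labelled array was at 0.27 and 0.30, and the Mical3-labelled array at 0.03 and 0.09. On chromosome 10 the medians were 0.13 and 0.05 for the Mical2-labelled array and -0.17 and -0.28 for the Mical3-labelled array. On chromosome 17 they were -0.03 and -0.05, and 0.20 and 0.22, and on chromosome 19 they were -0.14 and -0.11, and 0.17 and 0.25. Between the controls, the vector minus untreated medians were 0.03 on chromosomes 1, 6 and 18, 0.04 on 19, -0.03 on 17 and -0.07 on 10, and over all 20 chromosomes they ran from -0.07 to 0.16, on chromosome 16. On chromosome X both hairpin arrays lay below both controls, by medians of -0.33 to -0.27, and differed from each other by 0.05.

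**Figure D5:**
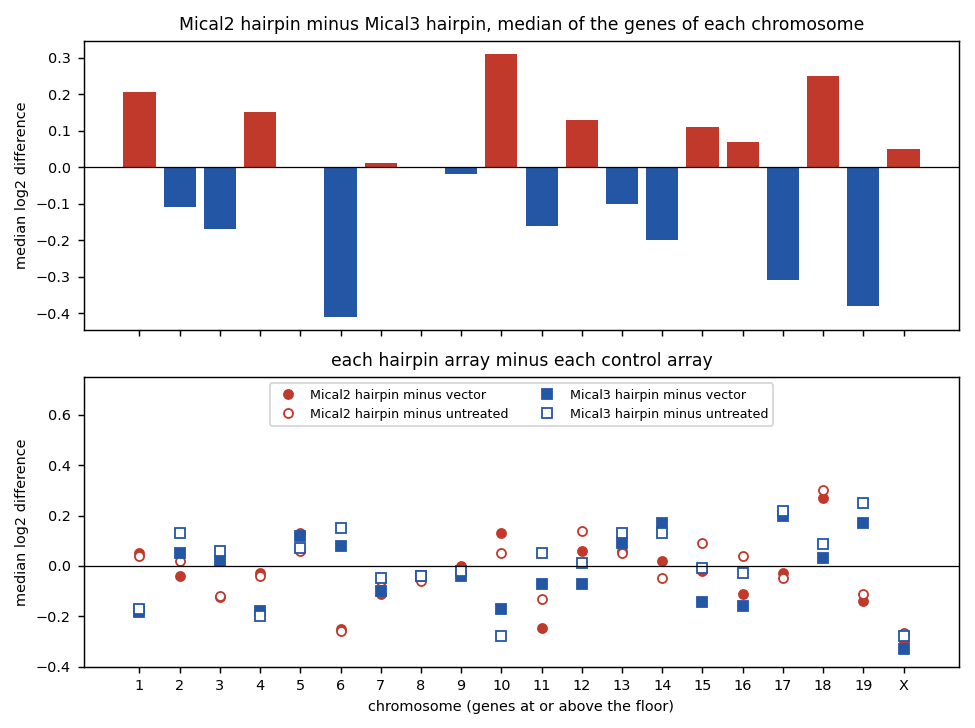
Median log2 difference of the genes of each chromosome at or above the floor, for the Mical2 hairpin array minus the Mical3 hairpin array (bars, top) and for each hairpin array minus each control array (marks, bottom). Bars run from -0.41 on chromosome 6 to 0.31 on chromosome 10, and the marks show that the arrays stand away from the controls on different chromosomes.

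The shift ran along whole chromosomes in some cases. In 4 equal blocks of chromosome 6 by gene order, medians were -0.44, -0.44, -0.41 and -0.37, and in 4 blocks of chromosome 19 they lay between -0.43 and -0.35. Chromosome 1 had medians of 0.04, 0.14, 0.25 and 0.38 in order. With each chromosome's median subtracted, a setting chosen after seeing the data, 433 genes were higher on the Mical2-labelled array and 346 on the Mical3-labelled array, of which 716 were among the 898. The part of these chromosome-wide differences in the gene groups above was not tested beyond this subtraction. Stretches of at least 3 neighbouring genes called in one direction numbered 9. Among them were Col6a2 with Col6a1 and Pcbp3, and the 3 Y-linked genes.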

How the data were processed

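Total RNA of SVEC4-10 cells was read on 4 arrays, 1 per group, each a pool of 3 biological replicates per the labels. The authors deposited log2 levels with 2 decimals, made with RMA (background correction, quantile normalization and probe set summary) per the submitters' processing notes. Its version is not given in the sources used here. Of 45101 probe sets, 64 are controls, 34945 have 1 gene symbol, 932 several and 9160 none. Symbols were updated through Entrez identifiers to RefSeq (GRCm38.p6) for 34741, and the probe set with the highest mean of the 4 arrays stood for each of 18193 genes. Chromosomes and neighbours come from that table. With 1 array per group a size rule replaced tests. The code of the rule was run on simulated data with added differences larger than the threshold. Such a run checks the code and says nothing about which calls are real. RMA compresses differences near background, and the number of arrays limits the precision.

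Members and the 46 lists (37 of pathways, 9 of markers) were chosen with earlier results of these data known. The members of 1 list are not reported here. Named genes are the first 15 per direction, called list members, the MICAL family, genes at the threshold and genes apart from the controls in opposite directions. Other genes were named for a cell type, a comparison or a neighbour. Alternatives changed the fold, floor, probe set choice and scaling. Python 3.11.15, numpy 2.4.6, pandas 2.3.3, statsmodels 0.14.6 and matplotlib 3.10.9 were used.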

Additional observations from a re-analysis of the deposited data

Results flagged for a closer look

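Probe sets with no single gene symbol were left out of the comparison, and some carried a signal above the control arrays. Of 2655 at or above the floor, 13 were higher by at least 1 on the Mical2-labelled array than on the other 3 arrays, and 13 were higher on the Mical3-labelled array in the same way. The widest were a probe set at 12.29 on the Mical2-labelled array, 7.15 on the Mical3-labelled array, 5.66 (vector) and 8.72 (untreated), and one at 5.29, 8.79, 3.60 and 4.88 in the same order.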

How the results depend on the processing

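No paired analysis was possible because each group has 1 array and the labels give no replicate numbers. The counts follow the fold and the floor. With a fold of 1.5, 966 genes were higher on the Mical2-labelled array and 1321 on the Mical3-labelled array, and with a fold of 3 it was 218 and 157. A floor at the 75th percentile left 275 of the former. List members higher on the Mical2-labelled array went from 99 to 156 and 61 with folds of 1.5 and 3, and those on the Mical3-labelled array from 85 to 163 and 40. Under the other settings (no floor, other probe sets, other scalings) these counts stayed within 1.5 times. For the place of the controls, a distance of 3-fold gave 80 genes with the Mical2-labelled array apart and 106 with the Mical3-labelled array, 3 with both apart in opposite and 3 in the same direction, and a distance of 1.5-fold gave 74 and 32 of the last kinds. With the vector as the only control the 4 counts were 260, 325, 34 and 89, and with the untreated array alone 331 genes had the Mical3-labelled array apart, with 60 and 19 of the last kinds. Of 213 named members 139 passed under every setting other than a fold of 3 and the higher floor, and 2 reversed, Fkbp11 (0.14) and Slc2a3 (-0.29), both without probe sets open to cross-hybridisation. The cause of these changes was not tested. Medians of lists near 0 changed sign with the setting, as for Hox, Wnt and chemokine genes. With no floor the median of chromosome 6 was -0.14.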
